A study of Drosophila melanogaster with 3 samples.

Results

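CrebB binding was examined at the promoters of 87 nuclear genes that encode subunits of the oxidative phosphorylation system, among the 13945 genes of Drosophila melanogaster that are annotated as protein-coding on the autosomes and chromosome X. The genes were chosen by symbol in the Ensembl annotation: those starting with ND- (complex I, 40 genes), SdhA to SdhD (complex II, 7), UQCR (complex III, 9), COX and a digit (complex IV, 16) or ATPsyn (complex V, 15). A symbol made of another subunit's symbol and an L, with or without a number, marked a paralog, called testis-like here (24 genes), and the other 63 genes are called ubiquitous. These classes rest on symbols alone, since no expression was measured in these data. ChIP-seq, the sequencing of DNA that is immunoprecipitated with a protein, was run on whole embryos of mixed sex, 0 to 24 hours old, from a transgenic line that stably expresses CrebB with a C-terminal green fluorescent protein. The 3 biological replicates form 1 group, so there is no other group of samples to set against it. The antibody label of each sample is CrebB, although the samples are also described as an input control, and this conflict could not be settled from the lists. Whole embryos mix many cell types, and a peak does not show in which cells the gene was bound.

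Oxidative phosphorylation takes place in the inner mitochondrial membrane. Complexes I and II pass electrons from NADH and succinate to ubiquinone, complexes III and IV pass them on to cytochrome c and oxygen, and complex V uses the resulting proton gradient to make ATP. Most subunits are encoded in the nucleus, and in Drosophila many have a second copy known mainly from the male germ line. CrebB is the fly homologue of CREB, a basic leucine zipper (bZIP) factor that acts downstream of cAMP signalling and binds the cAMP response element (CRE).

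Sequences around 5 summits, the points of highest enrichment within a peak, are printed here because they lie at the genes that the values turn on. They were read from the RefSeq copy of dm6 on the strand of the gene, up to 100 bp to either side of the summit and without bases annotated as untranslated. ND-ASHI and COX7B have the strongest peaks of complexes I and IV. ND-42, ND-B17 and ND-39 were added after their values were seen, as examples of summits with a known motif. Capitals mark, in this order of genes, TTATATAA, the M1BP site on the reverse strand, and the CRE core TGACG; the first 2 stretches hold none of the motifs searched.
ND-ASHI, chrX:6679294-6679494, minus strand: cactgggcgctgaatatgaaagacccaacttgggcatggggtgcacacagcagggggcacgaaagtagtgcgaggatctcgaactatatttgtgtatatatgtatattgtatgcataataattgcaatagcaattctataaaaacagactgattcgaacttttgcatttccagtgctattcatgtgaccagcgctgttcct
COX7B, chr3L:17425233-17425433, plus strand: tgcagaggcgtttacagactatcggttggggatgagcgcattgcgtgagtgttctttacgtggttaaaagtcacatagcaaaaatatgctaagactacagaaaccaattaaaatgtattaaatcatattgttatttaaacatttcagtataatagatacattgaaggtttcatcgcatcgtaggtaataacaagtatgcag
ND-42, chr3R:22027528-22027708, plus strand: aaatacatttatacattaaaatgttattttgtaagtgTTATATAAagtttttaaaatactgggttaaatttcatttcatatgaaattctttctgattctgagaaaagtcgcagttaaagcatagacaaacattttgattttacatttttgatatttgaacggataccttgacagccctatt
ND-B17, chr2L:15751079-15751221, minus strand: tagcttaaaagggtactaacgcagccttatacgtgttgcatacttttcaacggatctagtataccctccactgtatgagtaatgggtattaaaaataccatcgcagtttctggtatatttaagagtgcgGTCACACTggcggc
ND-39, chr3L:20494922-20495073, plus strand: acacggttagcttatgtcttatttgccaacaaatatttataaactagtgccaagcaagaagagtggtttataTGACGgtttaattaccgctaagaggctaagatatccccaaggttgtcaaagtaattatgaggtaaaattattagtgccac

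Respiratory chain genes carried optimal CrebB promoter peaks about as often as other genes. Optimal peaks are the 3915 peaks that the authors kept by a reproducibility threshold (IDR). They are the first 3915 by signal of the list called on the 3 replicates together, and a listed peak need not recur in each replicate. A promoter peak is one whose summit lies within 500 bp of an annotated transcription start site (TSS). Of the 87 genes, 17 had an optimal promoter peak (19.5%, 95% Wilson interval 12.6% to 29.1%), against 18.7% of all protein-coding genes. The share is close to the background, and no test of a difference was made. All 17 were ubiquitous genes, which is 27.0% of the 63 (interval 17.6% to 39.0%). None of the 24 testis-like genes had one, which allows a share of up to 12.5%. Each of the 17 had a single optimal promoter peak, and no peak was shared by a pair of these genes. The intervals cover the counting of genes only, since the lists give no read numbers and the sequencing depth is unknown.

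The count differed between complexes by a few genes each. Complex I, the NADH dehydrogenase, had optimal promoter peaks at 9 of 34 ubiquitous genes (26.5%, Wilson interval 14.6% to 43.1%). Complex II, succinate dehydrogenase, had them at 0 of 4. Complex III, the cytochrome bc1 complex, had 1 of 6. Complex IV, cytochrome c oxidase, had 3 of 8 (37.5%, 13.7% to 69.4%), and complex V, ATP synthase, had 4 of 11 (36.4%, 15.2% to 64.6%). These intervals overlap, and the numbers are too small to order the complexes. Within complex I, 2 of the 7 core subunits had an optimal peak, ND-51 and ND-24, against 7 of the other 27. This grouping was chosen after the values were seen.

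**Figure D1:**
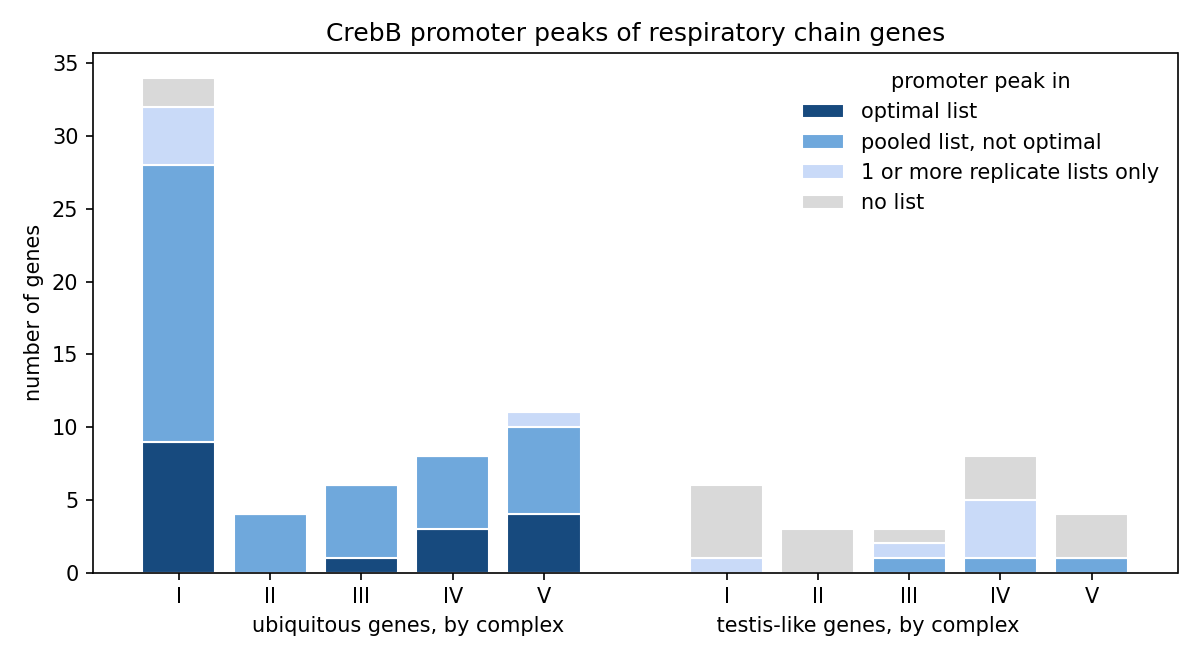
Number of genes (vertical axis) in each complex, ubiquitous genes on the left and testis-like genes on the right, split by the list that holds their promoter peak. Optimal peaks occur at 17 ubiquitous genes and at 0 testis-like genes, and 15 of 24 testis-like genes have a promoter peak in no list.

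Most of the 17 peaks ranked in the lower part of the optimal list. Signal values are the peak caller's own, have no stated scale and served to rank peaks within a list. The median rank of the 17 peaks in the optimal list was 2601, against 1866 for the strongest promoter peak of each of the 2604 genes with one. In the first 1957 peaks of the list lay 5 of the 17 (29.4%), against 52.6% of the genes with an optimal promoter peak. Reading the pooled list, which was called on the 3 replicates together, to 2000 peaks gave 5 ubiquitous genes (7.94%, Wilson interval 3.44% to 17.3%), against 10.1% of all genes, which lies inside the interval. Reading it to 12000 peaks gave 65.1% of ubiquitous genes (interval 52.8% to 75.7%) and 40.8% of all genes, and the whole list of 30000 gave 88.9% of ubiquitous genes (56 of 63), 12.5% of testis-like genes (3 of 24), 67.8% of all 87 (59 genes), and 56.8% of all protein-coding genes. Only 10663 peaks of the pooled list had a q-value under 0.05. Those peaks reached 36 ubiquitous genes (57.1%), 0 testis-like genes and 38.4% of all genes.

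**Figure D2:**
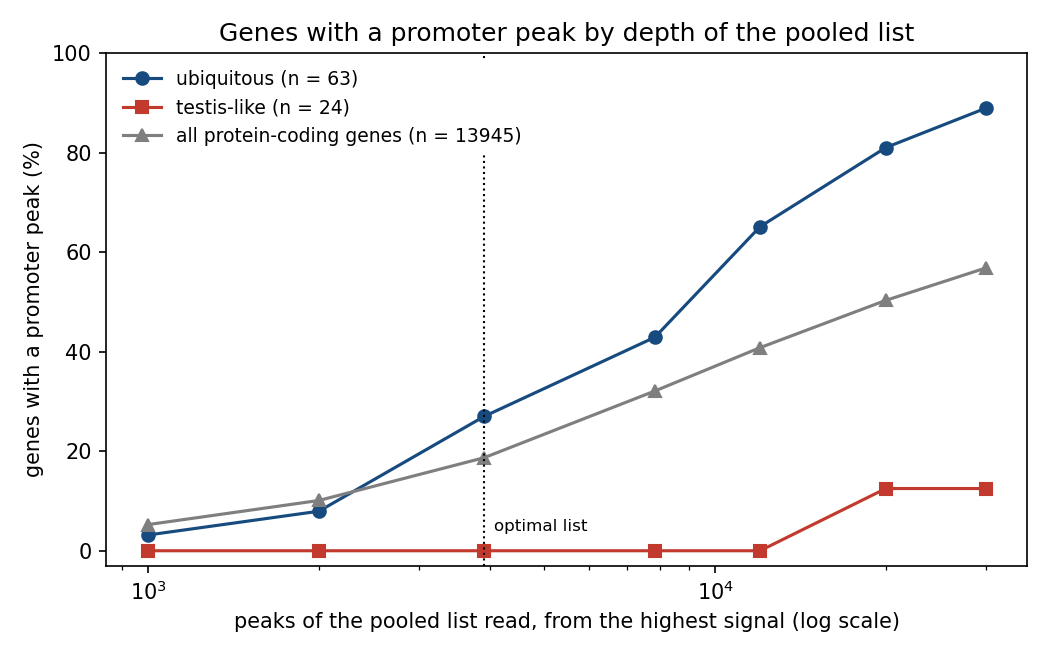
Share of genes with a promoter peak (vertical axis, %) against how many peaks of the pooled list were read from the highest signal down (horizontal axis, log scale), for the ubiquitous genes, the testis-like genes and all protein-coding genes. The line of ubiquitous genes crosses that of all genes between 2000 and 3915 peaks and ends at 88.9%, while the testis-like genes stay at 0 up to 12000 peaks.

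The replicates put different numbers of these genes among their strongest peaks. When each replicate's list was read to 3915 peaks, 14, 11 and 21 of the 87 genes had a promoter peak in replicates 1, 2 and 3, against 18.3%, 18.1% and 19.3% of all genes. This is 15.3 ± 5.13 genes or 17.6% ± 5.9 (SD, n = 3), against 18.5% ± 0.678 of all genes. Replicate 3 held the most, and without it the mean was 12.5 genes (SD 2.12, 2 replicates). The ubiquitous genes numbered 14, 11 and 20, and the testis-like genes 0, 0 and 1. In every replicate 5 genes had such a peak, ND-ASHI, ND-MWFE, ND-42, COX6B and ATPsynF, which is 5.75% of the 87 against 10.9% of all genes. Without replicate 1 this count was 8, without replicate 2 it was 9 and without replicate 3 it was 7. In the full lists of 30000 peaks, 41 of the 87 had a promoter peak in every replicate (47.1%), against 41.7% of all genes, and 40 of these 41 were ubiquitous.

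The optimal peaks of these genes recurred at the same site in all 3 replicates for 4 of the 17 genes. A replicate supported a peak when one of its first 3915 summits lay within 100 bp. The 4 peaks (23.5%) were those of ND-ASHI, ND-MWFE, COX6B and ATPsynF, against 51.2% of the promoter peaks of other genes. The peaks of other genes include those shared with a gene of the set, such as the peak at ND-ASHI and Fum1. A pair of replicates supported 7 peaks and a single replicate 6. In the first 1957 peaks of the optimal list the share was 4 of 5 peaks, against 85.3% for other genes, and in the rest it was 0 of 12, against 14.8%. The optimal list was derived from these replicate lists, so this recurrence is no independent evidence. Peaks supported by both other replicates were present at 7 of the genes without replicate 1, and at 6 each without replicates 2 and 3. Across the 41 genes with a promoter peak in all 3 full lists, the ranks in replicates 1 and 2 gave a Spearman's rho of 0.636. Replicate 3 gave 0.543 with replicate 1 and 0.605 with replicate 2; the genes share these libraries and are not independent.

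**Figure D3:**
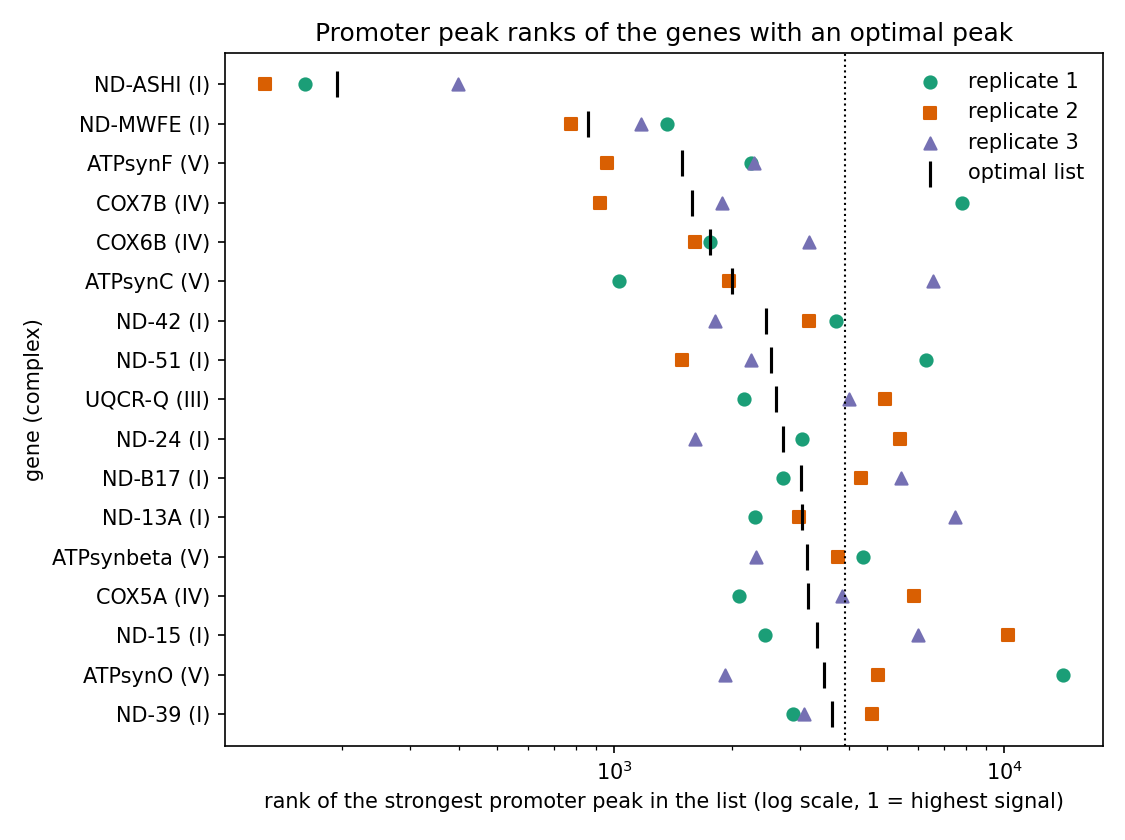
Rank of the strongest promoter peak (horizontal axis, log scale, 1 is the highest signal) of each of the 17 genes with an optimal promoter peak, in the 3 replicate lists (symbols) and in the optimal list (bars). ND-ASHI stands apart at ranks 127 to 398, and ATPsynO has the largest difference between its replicate ranks, 1919 and 14123; the dotted line marks rank 3915.

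ND-ASHI, an accessory subunit of complex I, had the strongest peak of the set. Its promoter peak ranked 161, 127 and 398 in replicates 1, 2 and 3, and 195 in the optimal list, with a signal of 673.3. The peak lies on chromosome X from 6679250 to 6679491 of dm6, in an intron of Fum1 on the other strand. The summit was 276 bp upstream of the nearest TSS of ND-ASHI and 246 bp from a TSS of Fum1, which encodes fumarase of the tricarboxylic acid (TCA) cycle. The peak is therefore nearer to Fum1, and the lists do not say which gene it serves. The printed stretch of this site has neither TGACGTCA nor TGACG.

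ND-MWFE, a small accessory subunit of complex I, came next. Its peak ranked 1369, 776 and 1168 in replicates 1, 2 and 3 and 858 in the optimal list (signal 333.4). It lies on chromosome 2R from 13158453 to 13158574, 157 bp upstream of ND-MWFE and 64 bp from a TSS of TppII, which encodes a peptidase. All 3 ranks of both genes stood inside the first 3915, and those of ND-ASHI and ND-MWFE did not overlap.

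The other complex I genes with an optimal peak ranked from 2456 to 3619 in the optimal list. ND-42, an accessory subunit, had promoter peaks at ranks 3713, 3161 and 1814 in replicates 1, 2 and 3. Its optimal peak (rank 2456, signal 194.1, chromosome 3R from 22027430 to 22027825) had its summit in intergenic sequence 81 bp upstream, and only replicate 1 had one of its first 3915 summits within 100 bp of it. ND-51, the core subunit that binds NADH, stood at ranks 6302, 1492 and 2249, with replicate 1 the low one. Its optimal peak (rank 2518, signal 191.3, chromosome 2L from 6062662 to 6063057) lay 103 bp upstream, in the space shared with CG13994. ND-24, ND-B17, ND-13A, ND-15 and ND-39 completed the complex, with signals from 158.9 to 184.3.

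UQCR-Q was the one complex III gene with an optimal peak. It encodes a small subunit of the cytochrome bc1 complex and ranked 2150, 4958 and 4006 in replicates 1, 2 and 3. Its optimal peak (rank 2601, signal 187.9, chromosome 3L from 17475030 to 17475425) had the summit 179 bp downstream of the nearer of the 2 UQCR-Q TSSs. This summit was 8 bp from the TSS of the nested gene CG46525, in a 5' UTR of the nested gene. Replicate 1 alone placed UQCR-Q within the first 3915 peaks. No summit of replicate 3 lay within 100 bp of the optimal summit, so rank 4006 belongs to another site. In complex II no gene had an optimal promoter peak: SdhC, a membrane anchor, ranked highest, at 7200 of the pooled list, followed by the flavoprotein SdhA (10164), the membrane anchor SdhD (11028) and the iron-sulfur subunit SdhB (17327).

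In complex IV the optimal peaks were at COX7B, COX6B and COX5A. COX6B, a subunit on the side of the intermembrane space, had the most even ranks: 1762, 1615 and 3152 in replicates 1, 2 and 3. Its peak (rank 1759, signal 228.4, chromosome X from 19744119 to 19744514) had the summit 18 bp downstream of a TSS that the annotation gives to both COX6B and CG18809. COX7B ranked 7819, 917 and 1894, so replicate 1 stood far below the other two. Its peak (rank 1583, signal 241.4, chromosome 3L from 17425135 to 17425530) lay 144 bp upstream of COX7B and 116 bp from a TSS of Sec3, a component of the exocyst. COX5A, a subunit on the matrix side, ranked 2084, 5864 and 3833 (optimal rank 3136, signal 170.9, chromosome 3R from 11819301 to 11819696). The optimal summit lay in an intron of COX5A itself, 100 bp upstream of the nearer of its 2 TSSs, and 79 bp from a TSS of glo. No summit of replicate 3 lay within 100 bp of it, so rank 3833 belongs to another site.

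In complex V the optimal peaks were at ATPsynF, ATPsynC, ATPsynbeta and ATPsynO. ATPsynF, a subunit of the membrane part, ranked 2241, 960 and 2282 in replicates 1, 2 and 3, all inside the first 3915 (optimal rank 1490, signal 248.9, chromosome 2R from 24599633 to 24600028, summit 10 bp upstream). ATPsynC, which forms the proton-carrying ring, ranked 1029, 1975 and 6585, with replicate 3 the low one (optimal rank 2008, signal 214.8, chromosome 3R from 31219318 to 31219713, summit 43 bp downstream in the 5' UTR). No summit of replicate 3 lay within 100 bp of this optimal summit, so rank 6585 belongs to another site. ATPsynbeta, the catalytic subunit, ranked 4342, 3740 and 2306 (optimal rank 3118, signal 171.2, chromosome 4 from 1031682 to 1032077, summit 16 bp downstream). ATPsynO, part of the peripheral stalk, was the least even, at ranks 14123, 4748 and 1919 (optimal rank 3457, signal 163.1, chromosome 3R from 15265394 to 15265789, summit 1 bp downstream). ATPsyndelta of the F1 part had a promoter peak in replicate 3 only, and ATPsyngamma ranked 16826 in the pooled list.

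Several genes stood just below the threshold of the optimal list. The last gene inside it was ND-39 (rank 3619, signal 158.9), and the first outside were ND-B8 (rank 4043 of the pooled list, signal 148.6), UQCR-C2 (4088, 147.6), ND-20 (4165, 146.0), ATPsynB (4190, 145.6) and UQCR-14 (4423, 140.8). ND-B8 is an accessory subunit of complex I and ranked 4040, 3870 and 5416 in replicates 1, 2 and 3. UQCR-C2, a core protein of complex III, ranked 5094, 4044 and 5822. ND-20, a core complex I subunit next to the quinone site, ranked 4145, 6357 and 4177. ATPsynB, of the peripheral stalk, ranked 5497, 6161 and 3490, and UQCR-14 ranked 3537, 9051 and 2571. Within 100 bp of the pooled summit of ATPsynB the ranks were 5497, 7428 and 26234, so its ranks 6161 and 3490 belong to other sites. Each of the 5 had a promoter peak in all 3 full lists. By distance, the summit farthest from a TSS among the 17 was that of ND-39 at 374 bp, and 7 other genes had an optimal summit at 549 to 995 bp: COX7AL2, ND-B14.5B, ATPsynD, SdhA, ATPsynG, ATPsynCF6 and ND-SGDH.

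Most testis-like paralogs had no promoter peak in any list. In the pooled list 3 of 24 had one: ATPsynbetaL (rank 13828), UQCR-6.4L (15394) and COX7AL2 (19883). The full replicate lists held promoter peaks at 83.1% ± 4.85 of the ubiquitous genes (SD, n = 3). They held them at 5, 5 and 3 of the 24 testis-like genes, which is 18.1% ± 4.81, against 55.5% ± 0.463 of all genes. No list held a promoter peak at 2 of the 63 ubiquitous genes, ND-AGGG and ND-MLRQ, or at 15 of the 24 testis-like genes (62.5%), against 30.2% of all genes. All 3 testis-like genes of complex II and 5 of 6 in complex I were among the 15. COX7AL2 was the one testis-like gene with a promoter peak in all 3 full replicate lists. Its promoter peaks ranked 7999, 8675 and 3410 in replicates 1, 2 and 3. Those of replicates 1 and 2 lay within 100 bp of its pooled summit, and that of replicate 3 did not. An optimal summit of rank 3335 lay 549 bp from a TSS of COX7AL2, just outside the distance used.

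Each testis-like gene was set beside the gene its symbol derives from, counting levy, cype and sun as the counterparts of COX6AL and COX6AL2, COX6CL and ATPsynepsilonL. In 23 of the 24 pairs the ubiquitous gene had a promoter peak in the pooled list, and in 3 the testis-like gene did. The counterpart had an optimal peak in 4 pairs, ND-51 with ND-51L1 and ND-51L2, ND-24 with ND-24L, and ATPsynbeta with ATPsynbetaL, and the testis-like gene had one in none. In 1 pair the testis-like gene ranked higher, COX7AL2 at 19883 against COX7A at 25408. Only ND-49, a core complex I subunit on chromosome 4, and its paralog ND-49L both lacked a pooled promoter peak.

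Promoter peaks lie within 500 bp of a TSS by definition, so only positions inside that window can be compared. The set holds 17 such peaks, and no test of a difference from other genes was made. The median distance from summit to TSS was 81 bp for the 17 genes and 118 bp for other genes with an optimal promoter peak. Summits within 100 bp of the TSS made up 64.7% for these genes, against 43.3% for other genes. Upstream of the nearest TSS lay 10 of the 17 (58.8%), against 76.8%. For ND-24, ND-39 and COX5A that TSS is internal to the gene, and the summit lay in an intron of the gene itself. By annotation, 5 summits were intergenic, 5 intronic, 6 in a 5' UTR and 1, that of ND-13A, in a coding exon. In 6 of the 17 (35.3%) the summit was nearer to a TSS of a gene outside the set, against 23.5% for other genes, and these were ND-ASHI, ND-MWFE, ND-39, UQCR-Q, COX7B and COX5A. Without them 11 of the 87 genes had an optimal promoter peak. A gene outside the set with a TSS on the other strand within 1000 bp was present at 40 of 63 ubiquitous genes (63.5%) and at 4 of 24 testis-like genes, against 36.9% of all genes. Of the ubiquitous genes with such a neighbour 32.5% had an optimal peak and of those without 17.4%, against 30.1% and 12.0% of all genes. Across all protein-coding genes a peak was thus more frequent where such a neighbour was present. The shares of the ubiquitous genes rest on only 13 of 40 and 4 of 23 genes. These numbers are small, no test of a difference was made, and no association within the set is claimed. The part of a neighbouring gene in the counts above was not tested.

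**Figure D4:**
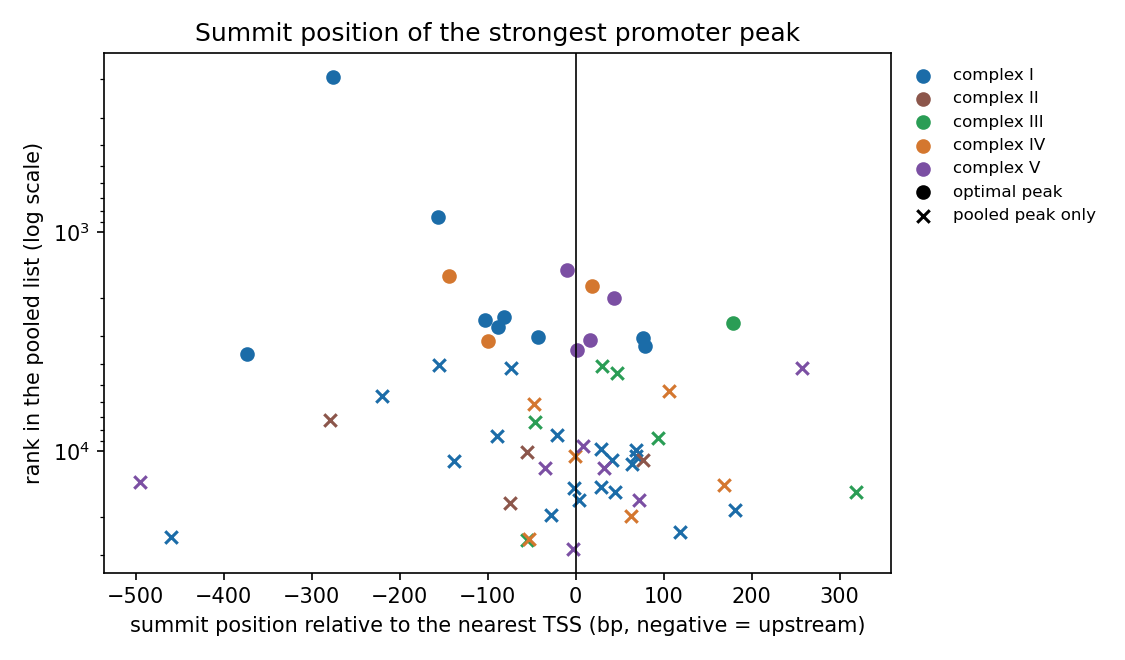
Position of the strongest promoter peak's summit relative to the nearest TSS (horizontal axis, bp) against its rank in the pooled list (vertical axis, log scale, strongest at the top), coloured by complex, for the 59 genes with a pooled promoter peak. Circles are the 17 optimal peaks, which run from 374 bp upstream to 179 bp downstream; crosses are peaks below the threshold.

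Motifs were counted within 100 bp of the summits, on both strands. The CRE palindrome TGACGTCA was at 0 of 17 summits, which at this number allows up to 17.6%, and at 0.671% of 1936 other optimal promoter summits. Its core TGACG, which is also part of the palindrome, was at 6 of 17 summits (35.3%, Wilson interval 17.3% to 58.7%), against 17.6% of the others; the genes were ND-MWFE, ND-24, ND-13A, ND-39, ATPsynF and ATPsynC. The DRE, TATCGATA, bound by the housekeeping factor DREF, was at 0 of 17 and at 7.33% of the others. The M1BP site AGTGTGAC was at 1 of 17, that of ND-B17, and at 5.01%. The NRG element, reported at Drosophila nuclear genes for respiration, was counted as TTACATAA, TTATGTAA, TTACGTAA or TTATATAA, and was at 2 of 17, ND-42 and UQCR-Q, against 3.15%. CACGTG, GAGAGAGA, GCGCATGC and CCGGAAGT were at 0 of 17. With 17 summits the intervals are wide, and no difference is claimed.

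The same motifs were counted in the promoters themselves, taken as 250 bp before to 50 bp after the first TSS. AGTGTGAC was in 14 of 63 ubiquitous promoters (22.2%, Wilson interval 13.7% to 33.9%) and in 1 of 24 testis-like ones, against 6.62% of all protein-coding promoters. TATCGATA was in 9 of 63 (14.3%, 7.7% to 25.0%) and 0 of 24, against 9.36%. TGACG was in 25.4% and 16.7%, against 23.8%, and TGACGTCA in 0 of 63 and 0 of 24, against 0.437%. The NRG element was in 5 of 63 (7.94%, 3.44% to 17.3%), ND-42, ND-SGDH, ND-MNLL, ND-30 and ND-49, and in 0 of 24, against 5.18%. CACGTG was in 2 of 63 and 2 of 24, against 4.2%, while GAGAGAGA (3.03% of all promoters), GCGCATGC (1.05%) and CCGGAAGT (0.38%) were in none of the 87. Among ubiquitous promoters AGTGTGAC was in 6 of 17 with an optimal peak and 8 of 46 without, and TATCGATA in 1 of 17 and 8 of 46. With the first TSS only, 15 of the 17 genes kept an optimal promoter peak, so some windows do not hold the peak. The 1 case of TATCGATA is ND-15, whose gene starts at 114726 of chromosome 2L and whose optimal summit is at 155414. Mean GC content of these windows was 34.8% in ubiquitous and 35.8% in testis-like promoters, against 39.1% in all, and its part in the motif counts was not tested.

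Other genes of mitochondrial energy metabolism were read from lists made with earlier results of these data known. Of 11 further subunits and carriers 3 had an optimal promoter peak (27.3%, Wilson interval 9.75% to 56.6%, against 18.7% of all genes): Cyt-c-d, a cytochrome c gene known from the male germ line (signal 650.4, ranks 324, 269 and 139 in replicates 1, 2 and 3), blw, the alpha subunit of ATP synthase (232.7; 3287, 1049 and 1952), and ox, a subunit of complex III (212.0; 1685, 1537 and 8542). The Cyt-c-d summit lay 393 bp downstream of its TSS. Cyt-c-p, the other cytochrome c gene listed, had no optimal promoter peak and ranked 5033 in the pooled list. This pair was not part of the paralog comparison above, and it ran the other way. Of 17 TCA cycle genes and genes of the pyruvate dehydrogenase complex 7 had one (41.2%, 21.6% to 64.0%), led by Idh3g, a subunit of isocitrate dehydrogenase (706.4; 196, 219 and 121). Fum1 followed with the peak it shares with ND-ASHI, then Ogdh, of the oxoglutarate dehydrogenase complex (252.6; 1176, 1749 and 2350). Of 15 assembly factors matched 2 had one: CIA30, for complex I (601.6; 230, 276 and 321), and Cox17, the copper carrier for complex IV (173.1; 6368, 2501 and 2930). Of 12 genes for expression and copying of the mitochondrial genome 1 had one, mtSSB, which binds single-stranded DNA (337.0; 935, 1360 and 576). Of 8 regulators 5 had one (62.5%, 30.6% to 86.3%), Dref (546.5; 207, 346 and 392), ERR, the oestrogen-related receptor (215.0; 1294, 2392 and 2198), and srl, the fly homologue of PGC-1 (211.5; 1996, 2453 and 3997), before foxo and Myc. All these lists are small and their intervals wide.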

How the data were processed

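Peak lists of CrebB ChIP-seq were used as the authors deposited them: 1 list per replicate, 1 pooled list and the optimal list, on assembly dm6 per the file headers and companion texts. Per those texts each replicate was called against 1 control alignment, and the optimal list was derived from the other 4 lists by an IDR threshold; aligner, caller and versions are not given in the sources used here. Each peak has a deposited signal value, a −log10 q-value given by the authors, and a summit offset. The replicate and pooled lists hold 30000 peaks each. The optimal list equals the first 3915 of the pooled list. Depth is unknown.

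Gene models were Ensembl release 115 (BDGP6, 19607 TSSs of protein-coding genes), and all peaks lay within the RefSeq chromosome lengths. A gene counted as having a promoter peak when a summit lay within 500 bp of any of its TSSs, and its strongest such peak was used. This was done in each list on its own, so a replicate rank can belong to another site than the optimal peak. Shares have Wilson intervals at 95%, and the limit at a count of 0 is 3 genes. Counting used Python 3.11.15, pandas 2.3.3, numpy 2.4.6 and scipy 1.17.1. The counting code was checked on simulated peaks: 200 of 200 genes given a peak were recovered, with 0 called wrongly among 13945. A call was right when the same 500 bp rule, applied gene by gene, gave it, so neighbours of a placed summit also counted as right. The check covers the code and cannot show which gene a peak serves.

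The genes, classes, lists and alternatives were chosen with earlier results of these data known, so no test over genes was made. Full values are given for the 4 ubiquitous genes of highest signal per complex, testis-like genes with an optimal peak, the 5 highest pooled ranks below the threshold and up to 3 genes per list. Of the listed pathway genes, 7 symbols had no match.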

Additional observations from a re-analysis of the deposited data

How the results depend on the processing

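The count of 17 genes stayed between 15 and 24 when the summit distance was 250 or 1000 bp, when any overlap with the TSS window counted, when symbols were matched in any case (which added assembly factors), or with the first TSS only. It was 11 without summits nearer to another gene, 5 with the first 1957 optimal peaks, 59 with the whole pooled list and 4 with peaks supported by all 3 replicates, and 6 to 7 when each replicate was left out in turn, which requires support by both others. The ubiquitous genes gave the same counts, except 23 within 1000 bp, 17 with any overlap and 56 with the pooled list. The testis-like count of 0 became 1 within 1000 bp, 1 with any overlap and 3 with the pooled list. The 5 genes found in every replicate became 3 within 250 bp, 2 without summits nearer to another gene, 2 and 21 with 1957 and 7830 peaks per replicate, 25 with a q-value under 0.05, 41 with full lists, and 7 to 9 with a replicate left out. The mean of 15.3 genes per replicate became 5.33 and 29.3 with 1957 and 7830 peaks, 36.7 with a q-value under 0.05 and 56.7 with full lists, and 12.5 to 17.5 with a replicate left out. The mean was 12.7 within 250 bp, 19.7 within 1000 bp and 10.3 without summits nearer to another gene. The counts thus change with how deep the lists are read. Some also change with the summit distance, the handling of summits nearer to another gene and the replicate support asked for. The unknown read depth limits what a missing peak shows. No paired analysis was possible because the samples form 1 group.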
